A study of Mus musculus with 9 samples.

Results

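Lars2, Mir6236, Gm42418, Gm26917 and AY036118 are mouse genes whose counts may hold reads of ribosomal RNA (rRNA). They were chosen by symbol, with their higher counts in Dot1l(fl/+) midbrain and their joint movement from library to library already known, and make up 5 of the 47729 gene identifiers in each count file. Those 2 patterns are therefore given as a description, with no test. The other comparison, Dot1l(fl/fl) against control, was not used to choose them, although it shares the control libraries.

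The study removed Dot1l, the methyltransferase of histone H3 lysine 79, from dopamine (DA) neurons and asked which transcripts changed. All mice were C57/Bl6 and carried Pitx3-Cre/+ and Rosa-lox-stop-lox-YFP, and differed in the floxed Dot1l allele: Dot1l(+/+) controls, Dot1l(fl/+) and Dot1l(fl/fl). Total RNA was taken from dissected midbrain at 180 days, and each library is a pool of mice, with 3 pools a genotype and 9 libraries in all. The titles and the extraction protocol name this age and dissection, while the design text speaks of sorted embryonic cells, so the titles were followed. Cre comes from the Pitx3 locus, and the dissected tissue also holds cells without Cre.

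The libraries held 16422135 to 28403218 counts, and 17671 genes passed the filter on low counts. Levels are given as CPM, the count scaled to a fixed library size after normalisation. Dot1l itself, counted over the whole gene and so blind to the loss of a single floxed exon, lay at 80.2 to 85.2 CPM in controls, while the Dot1l(fl/+) pools lay at 60.6 to 84.2 and the Dot1l(fl/fl) pools at 73.9 to 82.9. The 10 DA markers were all measured, and their summed level was 738 to 825 CPM in controls, against 594 to 739 for Dot1l(fl/+) and 581 to 611 for Dot1l(fl/fl). The 8 oligodendrocyte markers summed to 10386 to 11426 CPM in the controls, so the tissue was not made of DA neurons alone. In such bulk samples fewer cells of a type and less RNA per cell cannot be told apart.

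Ribosomal RNA is transcribed from rDNA repeats by RNA polymerase I as a long precursor, which is cut into the 18S rRNA of the small ribosomal subunit and the 5.8S and 28S rRNAs of the large one. It makes up most of the RNA of a cell and is largely removed when an mRNA library is prepared. Genes whose annotated sequence resembles a piece of rRNA can collect the reads that remain. Lars2 is the one member with a known protein, the mitochondrial leucyl-tRNA synthetase, which loads leucine onto tRNA for translation inside mitochondria.

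On chromosome 17 (GRCm38), 3 of the 5 genes share 1 locus. Gm26917 (ENSMUSG00000097971, lincRNA in GENCODE M21) is annotated at chr17:39843013-39846341 on the plus strand. Only 12 bases separate its end from the RefSeq pseudogene Rn18s-rs5 at chr17:39846354-39848202, a copy of the 18S rRNA for which RefSeq lists Gm42418 as a synonym. Gm42418 (ENSMUSG00000098178, lincRNA, chr17:39846958-39848788, plus strand) covers the last 1245 bases of this 18S copy and the 586 bases after it. AY036118 (ENSMUSG00000105361, lincRNA, chr17:39847113-39848035) lies on the minus strand with all of its 923 bases inside Gm42418. The locus is therefore read on both strands by the annotation, and near-identical rDNA copies exist elsewhere in the genome, so counts at this place are uncertain.

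**Figure D1:**
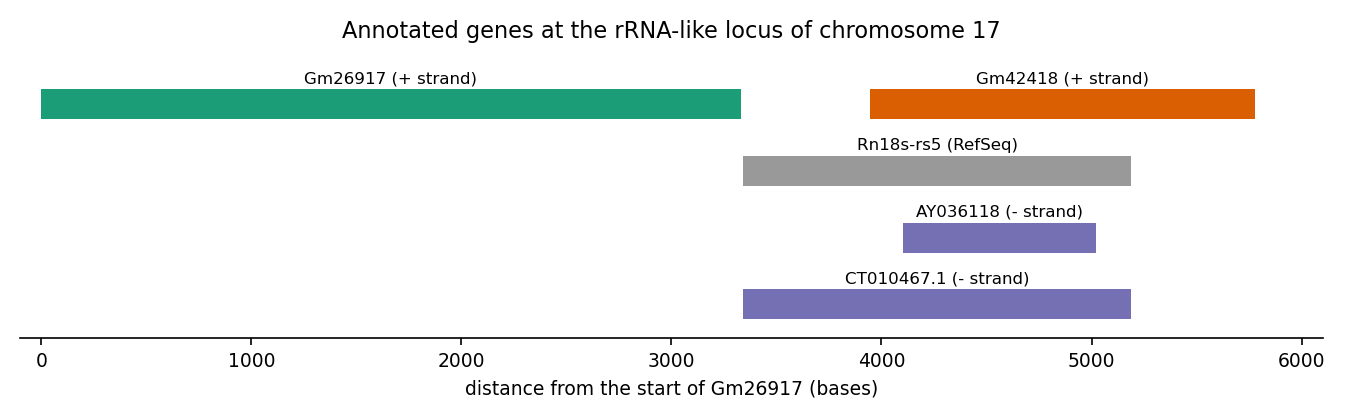
The annotated genes at the rRNA-like locus of chromosome 17, drawn to scale by distance in bases from the start of Gm26917, with strands in brackets. Gm42418 and Gm26917 do not overlap and lie 616 bases apart, while AY036118 and CT010467.1 lie on the other strand across Gm42418.

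Short pieces of the locus from the GENCODE M21 transcripts show how these genes relate. The first pair is printed because the same 40 base pairs, in capitals, belong to Gm42418 (chr17:39847996-39848045) and, read from the minus strand, to the 5′ end of AY036118. Only the strand of a read could tell the 2 genes apart here. The second pair is printed because the neighbours Gm26917 (its last 60 bases, chr17:39846282-39846341) and Gm42418 (its first 60 bases, chr17:39846958-39847017) differ in sequence. Capitals in the second pair mark CG steps, which number 11.2 per 100 bases over the whole of Gm26917 and 9.45 over Gm42418, against 1.87 in Lars2.
Gm42418 at the 5′ end of AY036118: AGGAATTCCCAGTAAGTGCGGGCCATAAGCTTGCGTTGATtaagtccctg
AY036118 5′ end: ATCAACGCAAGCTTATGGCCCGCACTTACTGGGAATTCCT
Gm26917 3′ end: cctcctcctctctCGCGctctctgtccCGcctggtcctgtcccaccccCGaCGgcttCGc
Gm42418 5′ end: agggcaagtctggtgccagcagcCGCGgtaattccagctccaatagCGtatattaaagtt

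The other 2 genes, Mir6236 and Lars2, lie on chromosome 9, far from each other. Mir6236 (ENSMUSG00000098973, plus strand) is annotated as a microRNA hairpin of 123 bases, and no other member is a miRNA. The libraries were built from fragments far longer than a mature miRNA, so the counts of Mir6236 do not measure the mature form.

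Lars2 (ENSMUSG00000035202, chr9:123366927-123462666, plus strand) has a main transcript of 3894 bases in 21 exons. A stretch of 72 bases at chr9:123462048-123462119, in exon 21 after the last coding base and so in the 3′ UTR, matched Gm15564, an antisense non-coding gene on chromosome 16, at 71 of 72 bases. A window of 30 bases of Gm15564 (chr16:35981730-35981759, minus strand) is printed because it holds the only difference, A16T, counted from the 5′ end of the window with the base of Lars2 first. A read of this stretch could be placed at either gene. A longer piece of the same region matched AA474408 on chromosome 7 at 94.8% of 97 bases.
Gm15564 stretch like Lars2: ggaacgtgagctgggTttagaccgtcgtga

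Compared by blastn, none of Lars2, Mir6236, Gm42418 and Gm26917 matched another of these 4 genes. Shared sequence among the members was found for Gm42418 and AY036118, on opposite strands. No sequence of the 28S rRNA or of the whole rDNA repeat was in the reference used here, and the members were not compared with these.

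Gm42418 held the most counts of the 5 genes. Its level was 391, 322 and 354 CPM in the 3 control pools, 1032, 925 and 638 CPM in the Dot1l(fl/+) pools and 264, 423 and 516 CPM in the Dot1l(fl/fl) pools, in the order of the pool numbers. Every Dot1l(fl/+) pool lay above every other pool, and the Dot1l(fl/fl) pools lay on both sides of the controls. The means were 355 ± 34.8, 865 ± 204 and 401 ± 127 CPM (SD, n = 3), a log2 difference of 1.28 (SE 0.20) between Dot1l(fl/+) and control.

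AY036118, the antisense gene inside Gm42418, was at 0 counts in all 9 libraries. By counting error alone this allows up to 3 counts a library, or 0.106 to 0.183 CPM. All 923 bases of AY036118 also lie in CT010467.1 on the same strand. How reads shared by overlapping genes were counted is not given, so the 0 sets no limit on the level of AY036118. AY036118 did not pass the filter and gives no comparison. CT010467.1, annotated as rRNA on the minus strand across most of Gm42418, held 8 counts over the 9 libraries against 120227 for Gm42418. The library kit keeps the strand, and whether the counting used it is not given in the sources used here.

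Gm26917, the neighbour of Gm42418 on the same strand, did not show the same pattern. It was at 35.4, 40.5 and 31.0 CPM in the controls, 40.3, 52.4 and 22.2 CPM for Dot1l(fl/+) and 41.4, 38.6 and 38.9 CPM for Dot1l(fl/fl). The Dot1l(fl/+) pools held both the highest and the lowest of the 9 values, so the genotypes overlapped. Its log2 difference was 0.11 (SE 0.21) between Dot1l(fl/+) and control.

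Lars2 was at 56.2, 52.5 and 51.7 CPM in the controls, 118, 95.5 and 73.5 CPM for Dot1l(fl/+) and 39.1, 57.3 and 61.7 CPM for Dot1l(fl/fl). The controls were close together, the Dot1l(fl/+) pools were all higher than any other pool, and the lowest value of all was a Dot1l(fl/fl) pool. The means were 53.5 ± 2.43, 95.6 ± 22.2 and 52.7 ± 11.96 CPM (SD, n = 3), with a log2 difference of 0.84 (SE 0.16) between Dot1l(fl/+) and control.

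Mir6236 was the least counted of the members with reads, with 57, 50 and 52 counts in the controls, 173, 166 and 107 for Dot1l(fl/+) and 36, 40 and 59 for Dot1l(fl/fl). Again the 3 Dot1l(fl/+) pools were the highest of the 9. In CPM the means were 2.27 ± 0.385, 5.57 ± 1.37 and 2.20 ± 1.196 (SD, n = 3), a log2 difference of 1.31 (SE 0.28) between Dot1l(fl/+) and control.

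**Figure D2:**
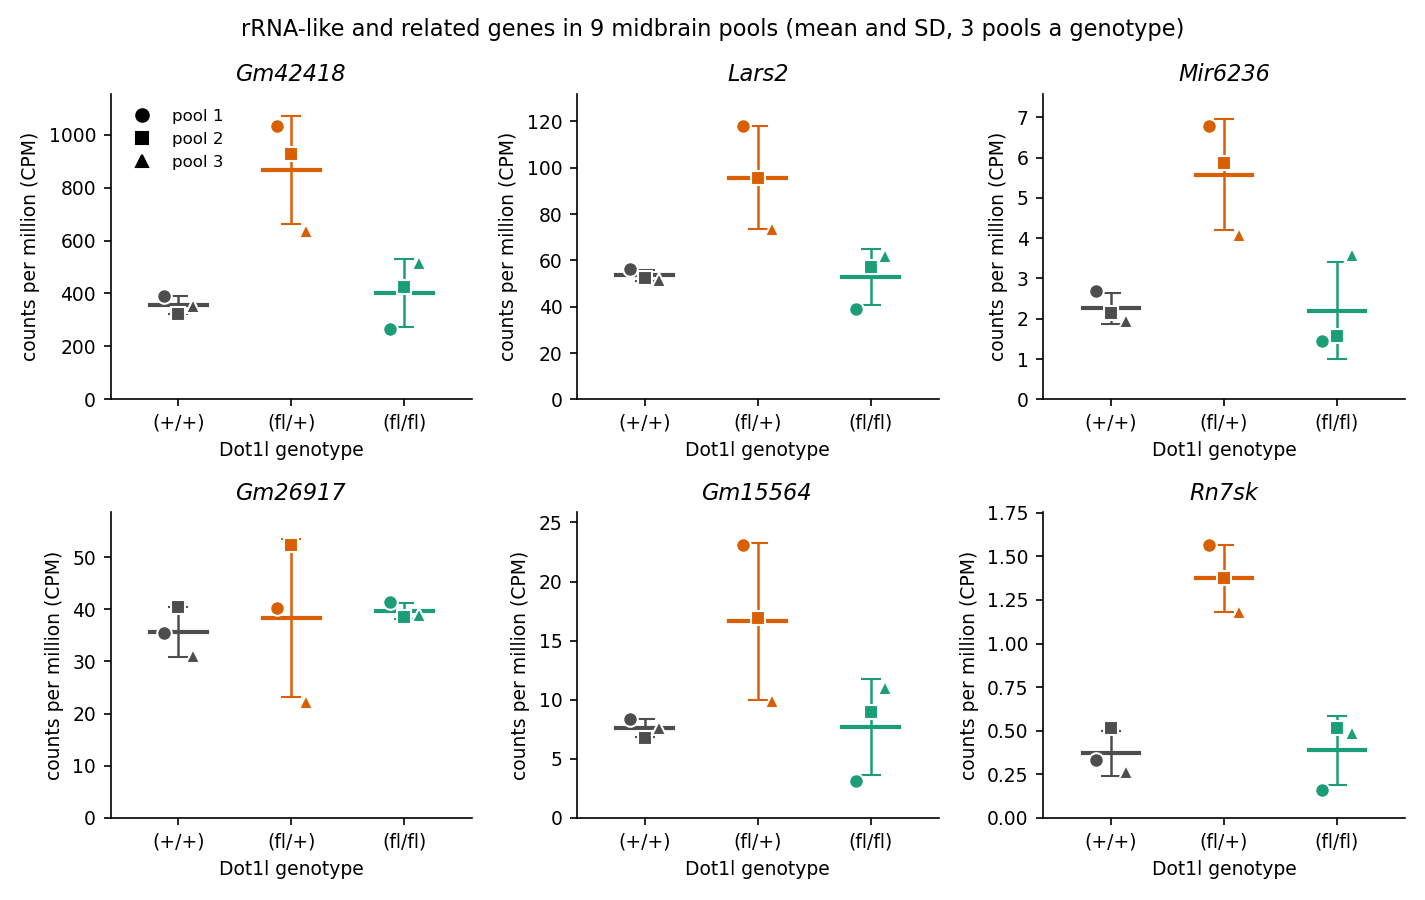
Level in CPM (y axis, from 0) of 4 members and of Gm15564 and Rn7sk in each pool, by Dot1l genotype (x axis). Symbols are pools, and bars give the mean and SD of 3 pools. In Gm42418, Lars2, Mir6236, Gm15564 and Rn7sk the 3 Dot1l(fl/+) pools lie above the 3 controls, and in Gm26917 they do not.

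Of the 4 members with reads, 3 had all Dot1l(fl/+) pools above all controls, which 6.84% of the genes tested also did. Set against Dot1l(fl/fl), the Dot1l(fl/+) pools of the same 3 members were again all higher, where 5.14% of genes had all Dot1l(fl/fl) pools lower. The log2 differences of Dot1l(fl/fl) from Dot1l(fl/+) were −1.11 (SE 0.20) for Gm42418, −0.86 (SE 0.16) for Lars2, −1.40 (SE 0.29) for Mir6236 and 0.05 (SE 0.21) for Gm26917. Both comparisons rest on the same Dot1l(fl/+) pools. Among the 13176 genes with a mean of at least 80 counts, Mir6236 ranked 4, Gm42418 ranked 6, Lars2 ranked 14 and Gm26917 ranked 2062 by the log2 difference of Dot1l(fl/+) from control. Since the genes were chosen with this contrast known, these values describe them and support nothing.

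With edgeR's quasi-likelihood test and Benjamini-Hochberg adjustment, 0 of the 17671 genes tested (0%) had an adjusted p below 0.05 in any of the 3 comparisons. Without adjustment, 1483 genes had a p below 0.05 for Dot1l(fl/+) against control, 694 for Dot1l(fl/fl) against control and 1145 for Dot1l(fl/fl) against Dot1l(fl/+). The lowest edgeR adjusted p-values after Benjamini-Hochberg adjustment were 0.412, 0.0906 and 0.350. Other settings called more genes. In the same order, DESeq2 on the same 9 libraries called 7, 3 and 11 genes. The edgeR test called 0, 3 and 3 with the pool numbers as a block, and 251, 118 and 164 with no filter.

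For Dot1l(fl/fl) against control, the comparison that did not choose the genes, no member passed the threshold. The log2 differences were 0.17 (SE 0.20) for Gm42418, −0.03 (SE 0.16) for Lars2, −0.10 (SE 0.32) for Mir6236 and 0.16 (SE 0.21) for Gm26917, each within 1 SE of 0. All 4 had an edgeR adjusted p of 0.999 after Benjamini-Hochberg adjustment over all genes. At an unadjusted p below 0.05, 0 of the 4 members passed, against 2.21% of all genes higher and 1.72% lower. With 1 pool left out, the differences reached −0.57 for Mir6236 (without Dot1l(fl/fl) pool 3) and 0.40 for Gm42418 (without Dot1l(fl/fl) pool 1). The sign depended on single pools for 3 of them. Lars2 was at 0.01 without control pool 1 and 0.16 without Dot1l(fl/fl) pool 1, and Gm42418 was at −0.05 without Dot1l(fl/fl) pool 3. Mir6236 was at 0.04 without control pool 1, and at 0.14 and 0.09 without Dot1l(fl/fl) pools 1 and 2.

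**Figure D3:**
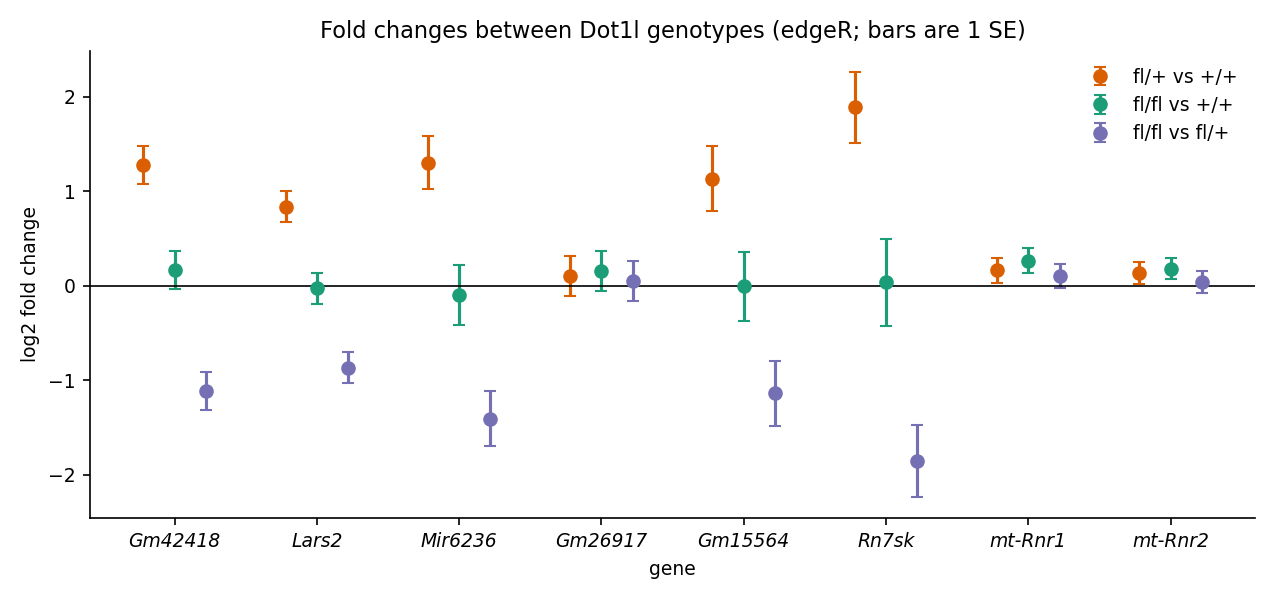
Log2 fold change (y axis) between Dot1l genotypes for 4 members and 4 other structural RNA genes (x axis), from 1 edgeR fit of 9 libraries, with bars of 1 SE. Gm42418, Lars2, Mir6236, Gm15564 and Rn7sk lie above 0 for Dot1l(fl/+) against control, near 0 for Dot1l(fl/fl) against control and below 0 for Dot1l(fl/fl) against Dot1l(fl/+).

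Levels of different genes can be compared only per length. Per kilobase of transcript, the control mean was 194 ± 19.0 CPM for Gm42418, 18.4 ± 3.13 for Mir6236, 13.7 ± 0.624 for Lars2 and 10.7 ± 1.44 for Gm26917 (SD, n = 3). Gm42418 lay far above the rest. The order of Lars2 and Gm26917 depends on the length taken, since Lars2 is counted per gene and was divided here by the 3894 bases of 1 of its 9 transcripts. Over all 11089 exon bases of the gene its control mean was 4.82 ± 0.219 CPM per kilobase (SD, n = 3), below Gm26917. By the transcript lengths, the means per kilobase in Dot1l(fl/+) were 472 ± 111, 45.3 ± 11.1, 24.6 ± 5.69 and 11.5 ± 4.56 CPM (SD, n = 3), in the same order. The 123 bases of Mir6236 are shorter than the fragments of the library, so its level per length is uncertain too. The 5 genes together took 0.0418% to 0.0488% of the counts of the controls, 0.0744% to 0.120% of those of Dot1l(fl/+) and 0.0342% to 0.0623% of those of Dot1l(fl/fl).

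Taken over the 3 genotypes, pools of the same genotype differed more in these genes than in most others of like abundance. The genes were chosen with their movement between libraries known, so their spread describes them and supports nothing. The SD within genotypes on the log2 scale was 0.285 for Lars2, at percentile 99.2 of the 4645 genes within 2-fold of its mean count, whose median SD was 0.0788. For Gm42418 it was 0.365 (percentile 99.6 of 531 genes), for Gm26917 0.383 (percentile 99.5 of 5251 genes) and for Mir6236 0.475 (percentile 97.6 of 1516 genes). This did not hold within every genotype. The SD of Lars2 was 0.0648 over the controls, at percentile 54.6 of the like genes, against 0.341 over Dot1l(fl/+) and 0.352 over Dot1l(fl/fl). The SD of Gm26917 was 0.632 over Dot1l(fl/+), from pools 2 and 3, but 0.0561 over Dot1l(fl/fl), at percentile 34.7. Gm42418 was at percentile 96.0 or higher in each genotype.

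With the genotype means removed, Lars2 and Gm42418 moved together over the 9 libraries (Pearson r = 0.962, Spearman rho = 0.95), and r stayed between 0.940 and 0.973 with any single library left out. Mir6236 followed them, with r = 0.830 to Gm42418 and r = 0.761 to Lars2. Gm26917 did not, with r = 0.384 and rho = 0.083 to Gm42418, and its r fell to 0.00066 without Dot1l(fl/+) pool 3. The points share their libraries, with their depth and preparation, and Lars2 and Gm15564 may share reads, so these values describe 9 libraries only.

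**Figure D4:**
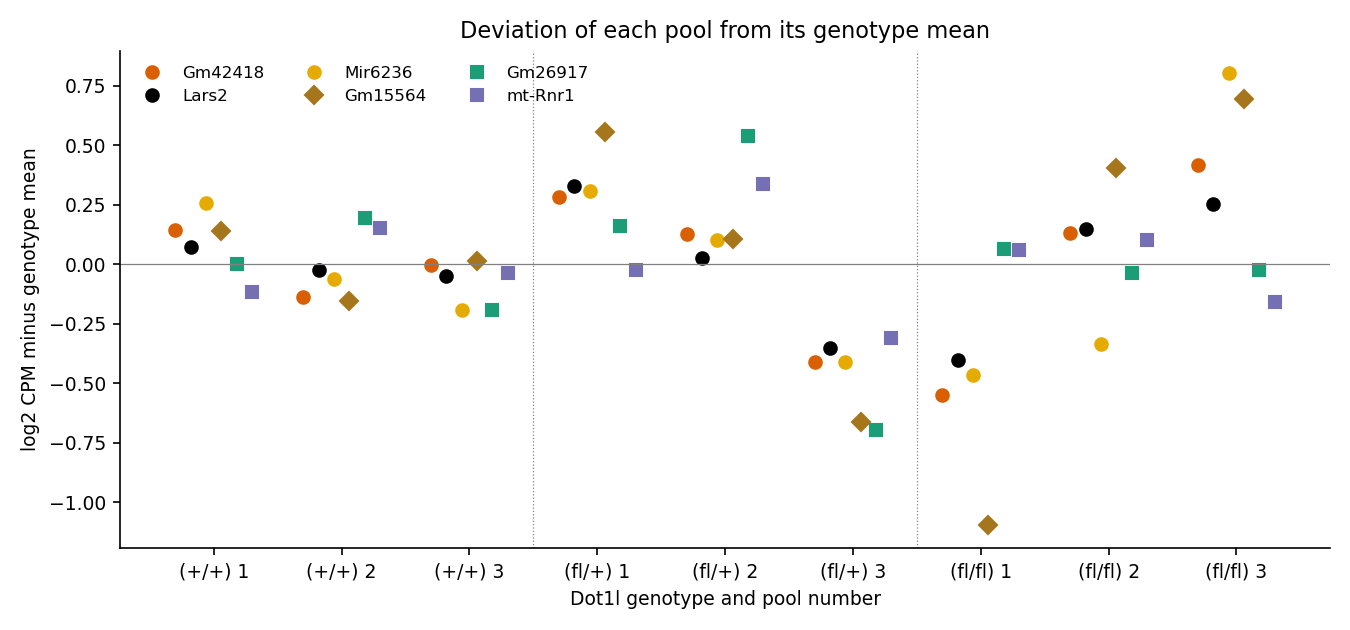
Log2 CPM of 6 genes minus the mean of their own genotype (y axis) in each of 9 pools (x axis). Gm42418, Lars2 and Gm15564 lie on the same side in most pools, high in Dot1l(fl/+) pool 1 and Dot1l(fl/fl) pool 3 and low in Dot1l(fl/+) pool 3 and Dot1l(fl/fl) pool 1, while Gm26917 and mt-Rnr1 follow another order.

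In CPM, Lars2 lay close to a straight line on Gm42418. The line gained 8.94 CPM of Lars2 for each 100 CPM of Gm42418 and met the axis at 18.9 CPM. The SD of the 9 libraries from it was 4.52 CPM, and the farthest library, Dot1l(fl/+) pool 1, lay 6.68 CPM above it. The 2 genes did not rise in proportion: the ratio of Gm42418 to Lars2 was 6.64 ± 0.451 in controls, 9.04 ± 0.568 for Dot1l(fl/+) and 7.50 ± 0.819 for Dot1l(fl/fl) (SD, n = 3), and the 3 Dot1l(fl/+) ratios were higher than any control ratio. Counts of Gm42418 per count of Mir6236 were 159 ± 19.5, 155 ± 2.86 and 198 ± 62.8 (SD, n = 3) and overlapped between genotypes. Counts of Gm42418 per count of Gm26917 were 10.1 ± 1.91, 24.0 ± 5.68 and 10.2 ± 3.50 (SD, n = 3), so the 2 neighbours on chromosome 17 moved apart in Dot1l(fl/+).

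**Figure D5:**
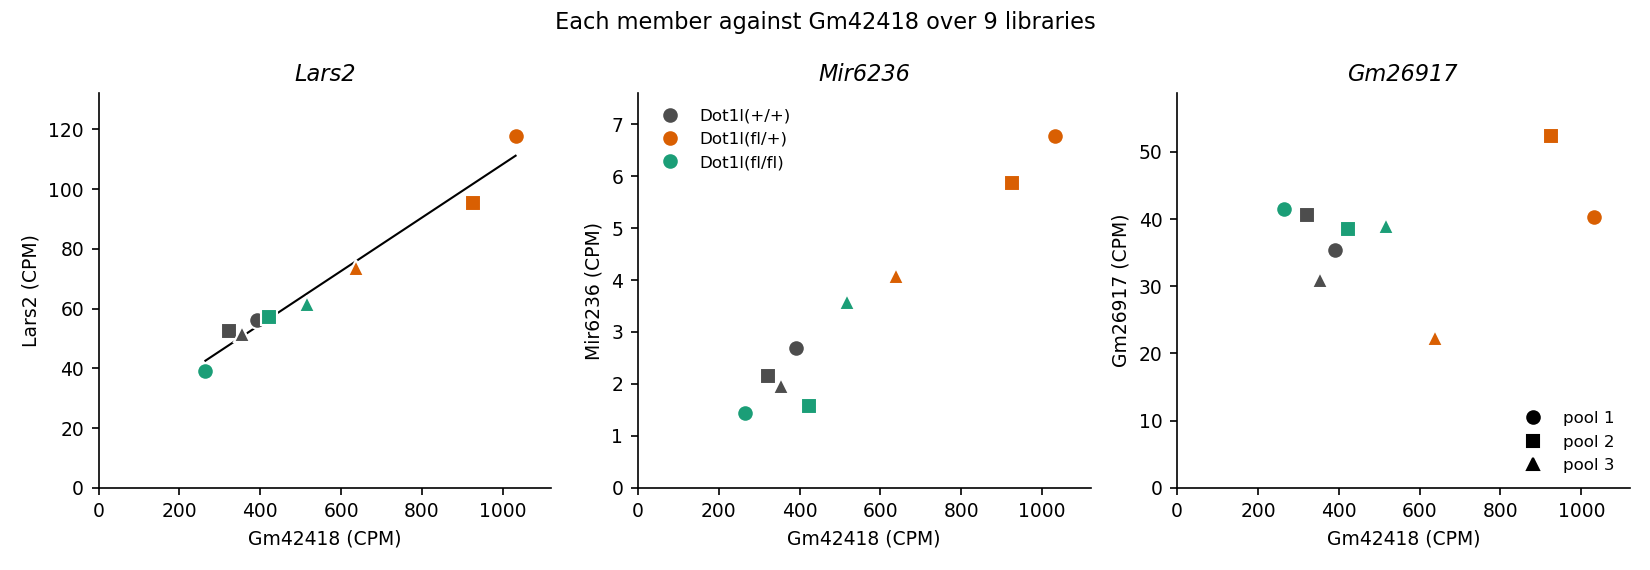
Level of Lars2, Mir6236 and Gm26917 (y axes, CPM) against Gm42418 (x axis, CPM) in 9 pools, with genotypes by colour and pools by symbol. The line in the Lars2 panel gains 8.94 CPM for each 100 CPM of Gm42418, and Gm26917 shows no such line.

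When the log2 CPM of Gm42418 entered the edgeR fit as a covariate, the log2 difference of Lars2 between Dot1l(fl/+) and control went from 0.84 to −0.14 (SE 0.13), and that of Mir6236 from 1.31 to −0.15 (SE 0.41). Between Dot1l(fl/fl) and Dot1l(fl/+), Lars2 went from −0.86 to 0.0015 (SE 0.12) and Mir6236 from −1.40 to −0.12 (SE 0.37). Gm42418 itself differed between the genotypes, so the covariate removes genotype as well as anything else that moves it.

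The other structural RNA genes were looked at as a list of 15, of which 12 were in the files and 4 passed the filter. The largest differences in Dot1l(fl/+) were those of Rn7sk and Gm15564. Rn7sk encodes 7SK, an RNA polymerase III transcript that holds the elongation factor P-TEFb inactive and carries no poly(A) tail. It had 7, 12 and 7 counts in the controls, 40, 39 and 31 for Dot1l(fl/+) and 4, 13 and 8 for Dot1l(fl/fl). Despite the low counts the 3 Dot1l(fl/+) pools were apart from the other 6, with a log2 difference from control of 1.89 (SE 0.37, edgeR adjusted p = 0.540 after Benjamini-Hochberg adjustment). Its r to Gm42418 with genotype means removed was 0.688 (rho 0.533), falling to 0.405 with a library left out.

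Gm15564, which shares the stretch with Lars2, had 176, 158 and 203 counts in the controls, 590, 478 and 259 for Dot1l(fl/+) and 78, 227 and 181 for Dot1l(fl/fl). All Dot1l(fl/+) pools were above the controls, and Dot1l(fl/+) pool 3 overlapped with Dot1l(fl/fl) in CPM. The log2 difference from control was 1.13 (SE 0.35, edgeR adjusted p = 0.541 after Benjamini-Hochberg adjustment) in Dot1l(fl/+) and −0.005 (SE 0.36) in Dot1l(fl/fl). Its r was 0.983 to Gm42418 and 0.974 to Lars2. AA474408, named here only for its match to Lars2, held 60 counts in all and 2 to 14 in a library, with no separation of genotypes.

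The rRNAs of the mitochondrial ribosome, mt-Rnr1 and mt-Rnr2, are transcribed inside mitochondria from mtDNA and had far more counts. mt-Rnr1 was at 2214 to 2662 CPM in controls, 2137 to 3345 for Dot1l(fl/+) and 2586 to 3095 for Dot1l(fl/fl), so the genotypes overlapped. mt-Rnr2 overlapped too, with a log2 difference from control of 0.14 (SE 0.12) for Dot1l(fl/+) and 0.18 (SE 0.12) for Dot1l(fl/fl). Their r to Gm42418 was 0.083 and 0.198. Gm26917 correlated with them, at r = 0.862 with mt-Rnr1 and 0.852 with mt-Rnr2 (rho 0.733 and 0.633), and with a library left out r was at least 0.772 and 0.752. Of 13172 genes outside the members, 238 had an r to Gm26917 at or above that of mt-Rnr1, so this value was not particular to the mitochondrial rRNAs.

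Rmrp and Rpph1, the RNAs of 2 ribonucleases that act on rRNA and tRNA precursors, were below the filter. Rpph1 had 0 to 7 counts in controls and 6 to 10 in Dot1l(fl/+), and Rmrp 0 to 1 and 1 to 5, which is too shallow for a comparison. The most counted snoRNA, Gm25129, was at 2.92 CPM in controls and 2.94 CPM in Dot1l(fl/+), and its genotypes overlapped.

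Likeness was ranked by Pearson r with genotype means removed, among 13172 genes outside the members with a mean of at least 80 counts. Of these, the genes most like Lars2 were Nt5e (0.990), Gm15564 (0.974), Fzd6 (0.968), Kcnmb2 (0.954) and Nup155 (0.949). Again with the members left out, those most like Gm42418 were Rnft2 (0.992), Gm15564 (0.983), Nt5e (0.948), Pus10 (0.942) and Dpysl2 (0.939). An r of at least 0.9 was reached by 30 of these genes (0.228%) with Lars2 and by 27 (0.205%) with Gm42418. With so few libraries and so many genes, some r this high arise by chance. Whether these exceed chance was not tested, so the names show no shared control. For the genes named, apart from Gm15564, the log2 differences between Dot1l(fl/+) and control were small, from −0.12 for Nt5e to 0.09 for Rnft2. With the genotype means kept in and the members left out, Gm15564 ranked 1 for Lars2 and 4 for Gm42418. None of the other genes named here ranked higher than 12.

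Aminoacyl-tRNA synthetases load each amino acid onto its tRNA, and the mitochondrial set is encoded in the nucleus. Of the 19 other mitochondrial synthetase and amidotransferase genes tested, 10 were higher and 9 lower in Dot1l(fl/+). Their median log2 difference was 0.02 (all genes −0.003), and 0 had an edgeR adjusted p below 0.05. The largest differences were 0.20 (SE 0.13) for Pars2, the prolyl-tRNA synthetase, and −0.19 (SE 0.07) for Mars2, the methionyl-tRNA synthetase. Of the 20 cytosolic synthetases, 15 were higher and 5 lower, where 48.9% of all genes were higher, with a median of 0.04. The largest differences were 0.11 (SE 0.07) for Hars and 0.10 (SE 0.05) for Yars. In Dot1l(fl/fl) 17 of the cytosolic synthetases were higher and 3 lower against the controls, where 50.4% of all genes were higher, with a median of 0.04. Of the 19 mitochondrial genes, 9 were higher and 10 lower there, with a median of −0.008. No cytosolic synthetase had an unadjusted p below 0.05 in either comparison. Of the 19 mitochondrial genes, 1 did (Mars2), lower in Dot1l(fl/+), where 4.09% of all genes were lower at that threshold.

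The genes of the machinery that makes rRNA were listed for comparison with the rRNA-like members. Of 15 genes of RNA polymerase I and rDNA transcription, 8 were higher and 7 lower in Dot1l(fl/+), with a median of 0.03. The largest values were 0.22 (SE 0.10) for Polr1c and −0.22 (SE 0.09) for Twistnb, both polymerase subunits. Of the 15, only these had an unadjusted p below 0.05, 1 higher and 1 lower, against 4.3% and 4.09% of all genes. Of 21 genes of rRNA processing and small nucleolar RNPs, 14 were higher and 7 lower, with a median of 0.03. Nop10, a core protein of the H/ACA particles that guide pseudouridylation, was at 15.6 CPM in controls and 22.3 CPM in Dot1l(fl/+), a log2 difference of 0.51 (SE 0.11), with all pools higher. Fbl, the methyltransferase of the C/D particles, had 0.48 (SE 0.32) at about 1 CPM. At an unadjusted p below 0.05, 2 of the 21 genes were higher and 0 lower, against 4.3% higher and 4.09% lower of all genes. These were Nop10 and Gas5, a host gene of small nucleolar RNAs. Gas5 had a log2 difference of 0.25 (SE 0.10), with all 3 pools above the controls. Of the 21 genes, 0 had an edgeR adjusted p below 0.05. In Dot1l(fl/fl) the medians of these 2 lists were −0.01 and 0.02. There, 16 of the 21 processing genes were higher, where 50.4% of all genes were, and 2 of them at an unadjusted p below 0.05, against 2.21% of all genes. These were again Nop10, at 0.28 (SE 0.11) with all 3 pools above the controls, and Gas5, at 0.26 (SE 0.10) with overlapping pools. Both had an edgeR adjusted p of 0.999 after Benjamini-Hochberg adjustment.

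The 13 proteins encoded by mtDNA, whose translation needs the leucyl-tRNA made by Lars2, were listed as well, and 7 passed the filter. The rest held at most 64 counts over all libraries (mt-Co2), against 2040418 for mt-Co1. The cause of these low counts was not tested, and the treatment of reads with several matches is not given. In Dot1l(fl/+) 2 of the 7 were higher and 5 lower (median −0.05), and in Dot1l(fl/fl) 7 of 7 were higher (median 0.11), where 48.9% and 50.4% of all genes were higher. Against Dot1l(fl/+), Dot1l(fl/fl) was higher in 7 of 7 (median 0.19), where 50.5% of all genes were higher. In that comparison 4 of them, mt-Cytb, mt-Nd2, mt-Nd4 and mt-Nd5, were higher at an unadjusted p below 0.05, against 3.6% of all genes. None passed the edgeR threshold in any of the 3 comparisons. The genes lie on 1 molecule and are not independent.

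No relation of Gm42418 to 6 properties of the libraries passed the test once genotype means were removed. These were the library total and the shares of counts on mtDNA-encoded proteins, replication-dependent histone genes, small structured RNA genes, pseudogenes and other lncRNA genes. The strongest relation, to the share of small structured RNAs, had r = 0.635 (two-sided exact permutation p = 0.241 over all orders within genotypes, whose smallest p is 0.00463, and 0.688 after Benjamini-Hochberg adjustment over 6 relations) and rho = 0.633 (exact permutation p = 0.185). Without the 2 libraries farthest from the median of that share, r was 0.426. The other 5 had r from −0.528, for the library total, to 0.509, for the histone genes, with exact permutation p from 0.421 to 0.718. Some of these values rested on few libraries. Without the 2 libraries farthest from the median of each property, r was −0.129 for the library total, −0.312 for the histone genes and −0.549 for the mtDNA-encoded proteins, from −0.154 over all 9. All 6 properties overlapped between Dot1l(fl/+) and control.

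Markers of tissue next to the DA area did differ between pools. The 3 hypothalamic neuropeptide genes that passed the filter, of 7 listed, summed to 1.503 to 9.32 CPM in controls, to 106, 2.54 and 55.0 CPM in the 3 Dot1l(fl/+) pools and to 2.02 to 3.52 CPM in Dot1l(fl/fl). The 5 choroid plexus markers summed to 61.9 to 147 CPM in controls, to 105, 170 and 562 CPM for Dot1l(fl/+) and to 37.0 to 43.0 CPM for Dot1l(fl/fl). In the same order of pools, Gm42418 was at 1032, 925 and 638 CPM. Their part in the levels of the rRNA-like genes was not tested. How rRNA was removed from the libraries is not given in the sources used here.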

How the data were processed

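RNA from dissected midbrain was measured in 9 pools, 3 for each genotype. The deposited files hold counts, raw and whole, per Ensembl gene identifier and library. The submitters' processing notes name bcl2fastq 2.17, Trimmomatic 0.30, DESeq2 1.10.1 and GRCm38.p4. The aligner, the counter with its strand setting, the annotation release and the treatment of reads with several matches are not given in the sources used here. The authors also deposited 3 tables of their own comparisons (fold changes and p-values), which were not used.

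Symbols and positions came from GENCODE M21 (GRCm38), which matched 47310 of 47729 identifiers and 99.9% of counts. Genes were filtered with filterByExpr, scaled with TMM (factors 0.988 to 1.01) and fitted in 1 model of 9 libraries with edgeR 4.0.16 (R 4.3.3), glmQLFit and glmQLFTest, with Benjamini-Hochberg adjustment and a threshold of 0.05. The script was tested on simulated data. Correlations used log2 CPM with a prior count of 2 and the genotype means removed, and permutations within genotypes were exact and two-sided. Transcripts were compared with blastn 2.17.0 (e-value 0.001, word size 11), in single pieces per gene pair. The sequence of Mir6236 is not reported here. Replicate counts differed by more than sampling noise (chi-square per degree of freedom 4.47 to 16.5), so no library was a copy. Per the study's methods 3 dissected samples were pooled per library and sets of the genotypes were matched within litters, but nothing says that the numbers in the titles mark these sets.

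The members and gene lists were chosen with earlier results of these data known. Genes named were the members, Dot1l and the 2 genes of each synthetase and rRNA list with the largest difference in Dot1l(fl/+). The 5 genes outside the members most like Lars2 and Gm42418 were named too. AA474408, CT010467.1, Rmrp, Rpph1, Gm25129, Gas5, the mtDNA-encoded genes and the mitochondrial rRNAs were named after their values were seen. Alternatives were DESeq2 1.42.0, other libraries in the fit, other scaling or filters (none, or 10 counts in every library), a replicate block, a length and GC offset, Gm42418 as a covariate and each library left out.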

Additional observations from a re-analysis of the deposited data

How the results depend on the processing

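With a library left out, the Dot1l(fl/+) difference from control ranged from 0.66 to 1.00 for Lars2, 1.14 to 1.49 for Mir6236, 1.14 to 1.46 for Gm42418 and −0.19 to 0.38 for Gm26917, and the Dot1l(fl/fl) difference, never called, from −0.15 to 0.16, −0.57 to 0.14, −0.047 to 0.40 and 0.06 to 0.26. Between Dot1l(fl/fl) and Dot1l(fl/+) it ranged from −1.02 to −0.69, −1.88 to −1.17, −1.33 to −0.89 and −0.23 to 0.34. With Gm42418 as a covariate, Lars2 was at −0.14 and Mir6236 at −0.15 in Dot1l(fl/+) against control, and at 0.0015 and −0.12 in Dot1l(fl/fl) against Dot1l(fl/+). Gm26917 went from 0.11 to −0.36 in Dot1l(fl/+) against control and from 0.05 to 0.48 in Dot1l(fl/fl) against Dot1l(fl/+). The cause was not tested. Genes called, 0 in each comparison, became 7, 3 and 11 with DESeq2 on 9 libraries, 45, 8 and 8 with DESeq2 on the 2 genotypes compared, 251, 118 and 164 with no filter, and 1 and 4 with edgeR on 2 genotypes (Dot1l(fl/+) and Dot1l(fl/fl) against control). The covariate gave 1 for Dot1l(fl/fl) against control. With a library left out the counts ranged from 0 to 5 (the most without Dot1l(fl/+) pool 2, and 1 without Dot1l(fl/fl) pool 1), from 0 to 4 (without Dot1l(fl/+) pool 2 or 3) and from 0 to 12 (2, 12 and 4 without Dot1l(fl/+) pool 1, 2 and 3). The correlation of Gm26917 with Gm42418 was 0.121 with genotype means kept and 0.083 as a rank, and ranged from 0.00066 to 0.570 with a library left out, that of Lars2 from 0.940 to 0.973 and that of Mir6236 from 0.787 to 0.933. With genotype means kept, the relation of Gm42418 turned to 0.194 for the library total, −0.088 for small structured RNAs, 0.316 for pseudogenes and −0.217 for lncRNAs. Permutation p-values and SEs rest on 3 pools a genotype. Rmrp and Rpph1 were too shallow for a comparison, and the values of Rn7sk rest on 4 to 40 counts a library.

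The replicate numbers of the titles were not taken as pairs in the main fit, since neither the labels nor the methods say what they mark. The SEs and p-values of that fit therefore ignore any pairing, although the study's methods describe matched sets. Deviations of same-numbered pools correlated at 0.289 to 0.317 for number 1, 0.111 to 0.182 for number 2 and 0.022 to 0.090 for number 3, and those of other pairs at −0.267 to 0.108. As a hint from the data, 6 of 9 libraries correlated more with both pools of their own number than with any differently numbered pool of another genotype. With the replicate block the counts of genes called were 0, 3 and 3 for Dot1l(fl/+) against control, Dot1l(fl/fl) against control and Dot1l(fl/fl) against Dot1l(fl/+), and with the length and GC offset as well 0, 3 and 4.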
